A study of Mus musculus with 4 samples.

Results

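The genes described here carry signals from cytokine receptors into the nucleus and switch them off again: the kinases *Jak1*, *Jak2* and *Jak3*, the transcription factors *Stat3*, *Stat5a* and *Stat5b*, and the feedback inhibitors *Socs1*, *Socs2*, *Socs3* and *Cish*. They were chosen by name, and every probe whose gene name on the array was in this list was taken. This gave 15 probes of 10 genes, of 39429 probes on the array. The accession of each probe named the same gene in the RefSeq annotation for 10 of the 10 genes.

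RNA came from *Ebf1*-/- lineage-negative (Lin-) cells of mouse fetal liver, called *Ebf1*-/- FL HPCs, which were infected with either of a pair of retroviruses. EBF1 is a transcription factor needed for B cell commitment, and both groups lacked it. The EMPTY group received MDH1-PGK-GFP, a vector that expresses green fluorescent protein, and the *Mir195* group received MDH1-PGK-GFP-Mir195, the same vector carrying the microRNA. The culture medium of both groups held 10 ng/mL each of the cytokines IL-7, SCF and Flt3-ligand, and per the methods the cells grew on OP9 stromal cells. Each virus was measured on 2 single-dye arrays, labelled from 100 ng of RNA, and nothing in the sample labels says that the replicates came from separate cultures or animals, so the p-values measure only the spread between these samples. The age of the fetuses is not in the sample labels, the sources used here do not say that infected cells were sorted before the arrays, and OP9 cells may have been present. The comparison asks whether cells carrying *Mir195* had other levels of this signalling pathway than cells carrying the empty vector.

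IL-7 acts through a receptor made of IL-7Rα and the common gamma chain, which bind JAK1 and JAK3. The kinases phosphorylate STAT5, which enters the nucleus and activates genes that include *Cish* and the *Socs* genes. Their protein products bind the receptors or the kinases and damp the signal, so their transcripts are commonly used as a readout of recent cytokine signalling. In B cell progenitors this pathway is known for its role in survival and proliferation.

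The microRNA under test is shown first, because it is the only designed difference between the groups. The mature mouse form of miR-195a-5p from RefSeq (GRCm38.p6, chr11:70235062-70235082, plus strand) is given 5′ to 3′ with its seed, bases 2 to 8, in capitals. The methods print the same mature sequence for the insert of the vector. The coordinates are those of the mouse gene and do not describe the insert. The RefSeq table holds 10 mature mouse miRNAs with this seed, among them miR-16-5p and miR-497a-5p.
mmu-miR-195a-5p: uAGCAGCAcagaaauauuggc
mmu-miR-16-5p: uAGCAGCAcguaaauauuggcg
mmu-miR-497a-5p: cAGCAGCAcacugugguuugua

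STAT proteins bind a palindrome that is written TTCNNNGAA, where N is any base. It was searched in the RefSeq promoter windows, which reach from 250 bases before to 50 bases after the start site; as the motif is its own reverse complement, a single search covered both strands. Windows were present for 9 of the 10 genes, and the motif was found in those of *Cish* and *Socs3*. Of all 32851 promoter windows, 8.3% held it, and 0.457% held it 2 or more times, as that of *Cish* did. For the other members, the lack of a match says only that these letters are not in this window. Both promoters are printed because they held the motif. They run to 30 bases after the start, on the strand of the gene and with the motif in capitals. *Cish* and *Socs3* are known as the classical targets of STAT5 and STAT3. The *Cish* window is GRCm38.p6 chr9:107296409-107296688 (plus strand), and the *Socs3* window is chr11:117969337-117969616 (minus strand).
Cish: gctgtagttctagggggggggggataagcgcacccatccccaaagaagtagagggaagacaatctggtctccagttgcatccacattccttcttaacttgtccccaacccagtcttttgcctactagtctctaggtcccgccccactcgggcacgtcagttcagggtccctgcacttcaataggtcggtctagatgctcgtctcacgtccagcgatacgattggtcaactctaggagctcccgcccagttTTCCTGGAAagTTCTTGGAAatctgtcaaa
Socs3: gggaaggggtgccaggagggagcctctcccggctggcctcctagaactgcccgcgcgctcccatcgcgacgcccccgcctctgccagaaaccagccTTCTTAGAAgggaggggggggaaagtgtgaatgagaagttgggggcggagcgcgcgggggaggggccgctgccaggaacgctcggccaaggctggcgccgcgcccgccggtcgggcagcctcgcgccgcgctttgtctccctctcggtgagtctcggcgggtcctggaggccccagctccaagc

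In *Cish*, the motifs began at bases 1 and 12 counted from the start site. In *Socs3*, the motif began 154 bases before the start site of its window. That window lies wholly within the annotated gene (chr11:117966079-117970336, minus strand). The start site used for *Socs3* is therefore an internal one, and the motif lies downstream of the gene's outermost start.

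All 15 probes were measured well. The 33 spots that carried them were well above background on each of the 4 arrays, and none was saturated or an outlier. A level here is a log2 signal minus the 75th percentile over the probes of its array, so that 0 marks the brightness of that percentile, and levels are compared only between arrays for the same probe. Before scaling, that percentile ranged from 902 to 1127 over the arrays, against a local background of 38 to 39. Both EMPTY arrays lay in the first positions of a single slide and both *Mir195* arrays in the last, so position and virus cannot be told apart. In such bulk samples, fewer cells of a type and less RNA per cell cannot be told apart either.

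**Figure D1:**
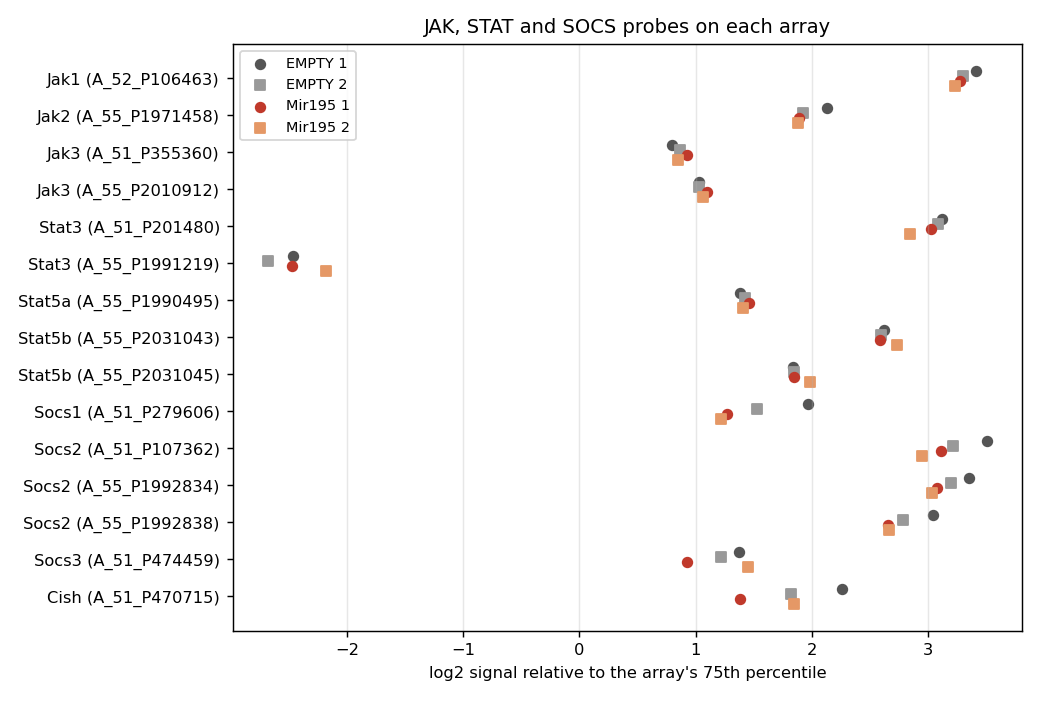
Log2 signal relative to the array's 75th percentile (horizontal axis) for each of the 15 probes (rows), with a point for each of the 4 arrays; grey points are EMPTY and red or orange points *Mir195*. The JAK and STAT5 points of a row lie close together, while *Socs1*, *Socs2* and *Cish* spread out, with the first EMPTY array highest.

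No member differed between the viruses at an adjusted p under 0.05 (limma, Benjamini-Hochberg over 23732 tested probes; background 0%). At an unadjusted p under 0.05, 1 of the 15 probes passed, that of *Socs1*, where 8.34% of all tested probes did. The *Mir195* arrays both lay below both EMPTY arrays for 7 of the 15 probes, where 14.4% of all tested probes did. They both lay above for 2 probes, where 23.4% of all tested probes did, and the groups overlapped for 6. The median log2 fold change was -0.12 over the 15 probes and 0.01 over all tested probes. Probes of the same gene are not independent, and by the brightest probe of each gene, 7 of the 10 genes were lower and 3, *Jak3*, *Stat5a* and *Stat5b*, were higher with *Mir195*. The smallest p that an exact permutation test (two-sided) can give for 2 arrays per virus is 0.333.

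**Figure D2:**
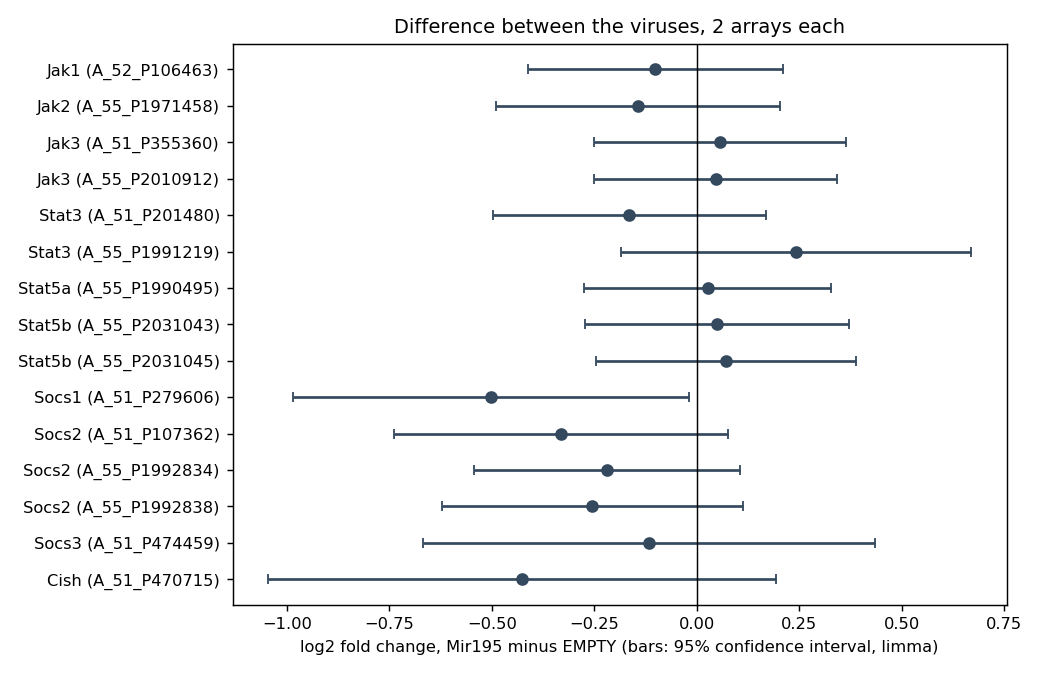
Log2 fold change of each probe, *Mir195* minus EMPTY (horizontal axis), with the 95% confidence interval of limma from 2 arrays per virus. The interval of *Socs1* ends just below 0, and those of the other 14 probes include 0.

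The JAK kinases differed by at most 0.144 on the log2 scale. JAK1 binds many receptors, among them IL-7Rα, and its probe A_52_P106463 (gene at chr4:101151974-101265282, GRCm38.p6) read 3.41 and 3.31 with EMPTY and 3.28 and 3.24 with *Mir195*. The groups did not overlap, but the EMPTY arrays differed from each other by 0.107, as much as the group means did (log2 fold change -0.10 ± 0.12 SE, 95% interval -0.41 to 0.21, adjusted p = 0.902). JAK2, the kinase of the erythropoietin, thrombopoietin and growth hormone receptors, read 2.14 and 1.92 in EMPTY cells and 1.89 and 1.88 in *Mir195* cells with probe A_55_P1971458 (chr19:29251803-29313095). Here too the first EMPTY array stood above the other three arrays, and the log2 fold change was -0.14 ± 0.13 (SE), with an adjusted p of 0.875. Without that array the log2 fold changes of *Jak1* and *Jak2* were -0.05 and -0.04.

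JAK3 pairs with the common gamma chain and is largely restricted to blood cells. Its probe A_55_P2010912 (chr8:71676383-71690577) read 1.03 on both EMPTY arrays, and the *Mir195* arrays lay just above them at 1.09 and 1.06. The other *Jak3* probe, A_51_P355360, read 0.80 and 0.86 against 0.93 and 0.85, and its groups overlapped. The log2 fold changes were 0.05 ± 0.11 and 0.06 ± 0.12 (SE). With intervals of -0.25 to 0.34 and -0.25 to 0.36, the arrays leave room for changes of up to 1.27-fold and 1.29-fold higher.

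The STAT5 probes differed between the viruses by at most 0.0717 on the log2 scale, and those of *Stat3* by more. The STAT genes stand side by side on chromosome 11: *Stat5b* (chr11:100780731-100859004) and *Stat5a* (chr11:100859351-100885169) are 346 bases apart, and *Stat3* (chr11:100886806-100939594) begins 1636 bases further on. STAT5A and STAT5B are close paralogs and the main STATs of IL-7 signalling. *Stat5a* read 1.39 and 1.43 with EMPTY and 1.46 and 1.40 with *Mir195* (probe A_55_P1990495), with overlapping groups. Its log2 fold change was 0.03 ± 0.12 (SE; 95% interval -0.27 to 0.33). *Stat5b* read 2.62 and 2.60 against 2.59 and 2.73 with probe A_55_P2031043, and 1.84 and 1.84 against 1.85 and 1.98 with probe A_55_P2031045. On both *Stat5b* probes the second *Mir195* array was the highest and the other three arrays were nearly level. The log2 fold changes were 0.05 ± 0.12 and 0.07 ± 0.12 (SE), and without the second *Mir195* array they were -0.02 and 0.0037.

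The 2 probes of *Stat3*, the main STAT of IL-6 type cytokines, disagreed in direction. Probe A_51_P201480 was printed in 10 spots per array and read 3.12 and 3.08 with EMPTY and 3.03 and 2.85 with *Mir195*, so the groups did not overlap (log2 fold change -0.17 ± 0.13 SE, adjusted p = 0.837). Its spots ran from 2.98 to 3.20 and from 2.96 to 3.14 on the EMPTY arrays, from 2.97 to 3.07 on the first *Mir195* array and from 2.82 to 2.88 on the second. The second *Mir195* array thus lay below every spot of the other arrays, whereas the spots of the first *Mir195* array fell within the range of the EMPTY spots. Without the second *Mir195* array the log2 fold change was -0.08. Probe A_55_P1991219 read -2.46 and -2.68 against -2.48 and -2.18, and its groups overlapped (log2 fold change 0.24 ± 0.16 SE, adjusted p = 0.813). Each carries its own RefSeq accession of *Stat3*. The first 30 bases of each are shown so that the probes can be told apart; the positions of the probes in the transcripts were not mapped here.
Stat3 A_51_P201480: cactctgtgagctgataccccaggctggga
Stat3 A_55_P1991219: tttaacattctgggcacgaacacaaaagtg

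The feedback inhibitors included the 2 largest differences among the members, those of *Socs1* and *Cish*. All 6 of their probes had a lower mean with *Mir195*, as did 11143 of the 23732 tested probes. For 4 of the 6, both *Mir195* arrays lay below both EMPTY arrays, where 14.4% of all tested probes did. These were 1 probe of *Socs1* and 3 of *Socs2*, and the 3 measure the same gene. The median log2 fold change was -0.29 for these 6 probes, against -0.03 for the 4 JAK probes and 0.05 for the 5 STAT probes; the difference between these groups of genes was not tested. None of the 6 passed the adjusted threshold (lowest adjusted p = 0.583, limma).

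*Socs1* encodes the inhibitor that binds JAK kinases directly and blocks their activity. Its probe A_51_P279606 (chr16:10783808-10785536) read 1.97 and 1.53 with EMPTY and 1.27 and 1.22 with *Mir195*. The *Mir195* arrays were nearly level and below both EMPTY arrays, and the EMPTY arrays were 0.446 apart from each other. The log2 fold change was -0.50 ± 0.18 (SE; 95% interval -0.99 to -0.02), a level 0.706 times that of EMPTY, with an unadjusted p of 0.0441 and an adjusted p of 0.583 (limma). Without the first EMPTY array it was -0.28, and without the second it was -0.73.

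*Socs2*, which restrains growth hormone and STAT5 signalling, was measured with 3 probes (chr10:95383903-95417321) that ran in parallel. Probe A_51_P107362 read 3.50 and 3.22 with EMPTY and 3.11 and 2.95 with *Mir195*. Probe A_55_P1992834 read 3.35 and 3.20 against 3.08 and 3.04, and probe A_55_P1992838 read 3.04 and 2.79 against 2.66 and 2.66. On each of the 3 probes the first EMPTY array was the highest, the second EMPTY array came next and both *Mir195* arrays were lowest. The log2 fold changes were -0.33 ± 0.16, -0.22 ± 0.12 and -0.26 ± 0.14 (SE), with adjusted p of 0.679, 0.763 and 0.753. Without the first EMPTY array they were -0.19, -0.14 and -0.13. The first bases of the 3 probes are shown because the same order of arrays came from different stretches of sequence.
Socs2 A_51_P107362: aggtgtgaagatgtagctaggtattttaaa
Socs2 A_55_P1992834: aaacacatgcctcatatagactatctccga
Socs2 A_55_P1992838: tgacagtgtggttcatctgattgactacta

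The 10 spots of probe A_51_P107362 give the error within an array. They ran from 3.41 to 3.60 on the first EMPTY array, from 3.11 to 3.30 on the second, from 3.07 to 3.16 on the first *Mir195* array and from 2.87 to 3.04 on the second. The spots of the first EMPTY array lay above every spot of the other arrays and those of the second *Mir195* array lay below every spot of the others, while the middle arrays overlapped. The SD between spots was 0.0297 to 0.0607, smaller than the 0.287 between the EMPTY arrays.

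**Figure D3:**
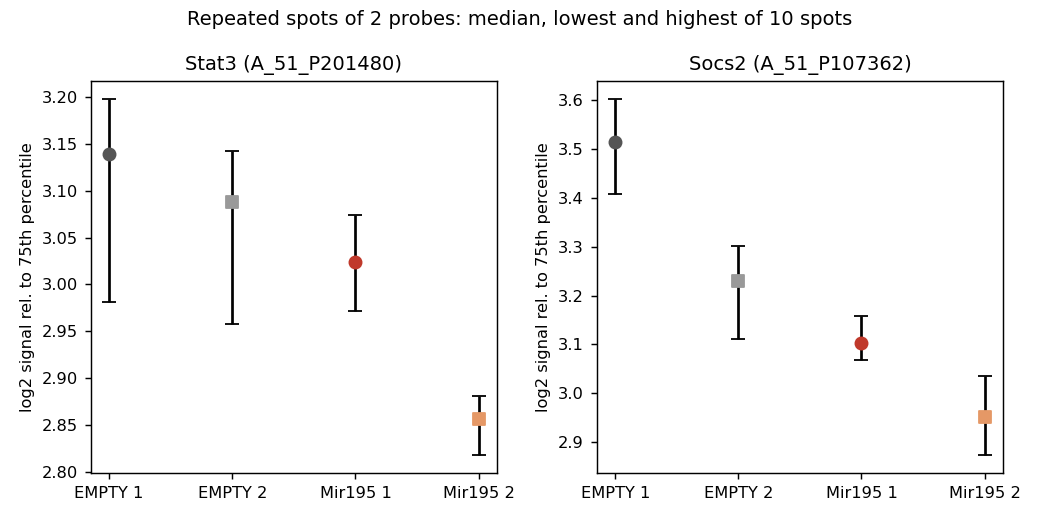
Median (point), lowest and highest (bars) of the 10 spots per array for the *Stat3* and *Socs2* probes printed repeatedly, as log2 signal relative to the 75th percentile; the vertical axes do not start at 0. The second *Mir195* array is lowest on both, and the first EMPTY array stands apart for *Socs2* and not for *Stat3*.

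*Cish*, the textbook STAT5 target, and *Socs3*, a STAT3 target that blocks receptors of the IL-6 type, did not separate the viruses. With probe A_51_P470715 (chr9:107296659-107302784), *Cish* read 2.26 and 1.82 in EMPTY cells and 1.38 and 1.84 in *Mir195* cells. The second *Mir195* array lay between the EMPTY arrays, and both groups were spread as widely as the means were apart (0.441 and 0.464 within the groups, -0.43 ± 0.24 SE between them; adjusted p = 0.756). Without the first EMPTY array the log2 fold change of *Cish* was -0.21, without the second EMPTY array -0.65, without the first *Mir195* array -0.19 and without the second -0.66. *Socs3* read 1.38 and 1.22 in EMPTY cells and 0.92 and 1.45 in *Mir195* cells with probe A_51_P474459 (chr11:117966079-117970336), so the *Mir195* arrays were the lowest and the highest of the 4. Its log2 fold change was -0.12 ± 0.21 (SE; adjusted p = 0.939), and it was 0.15 without the first *Mir195* array.

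**Figure D4:**
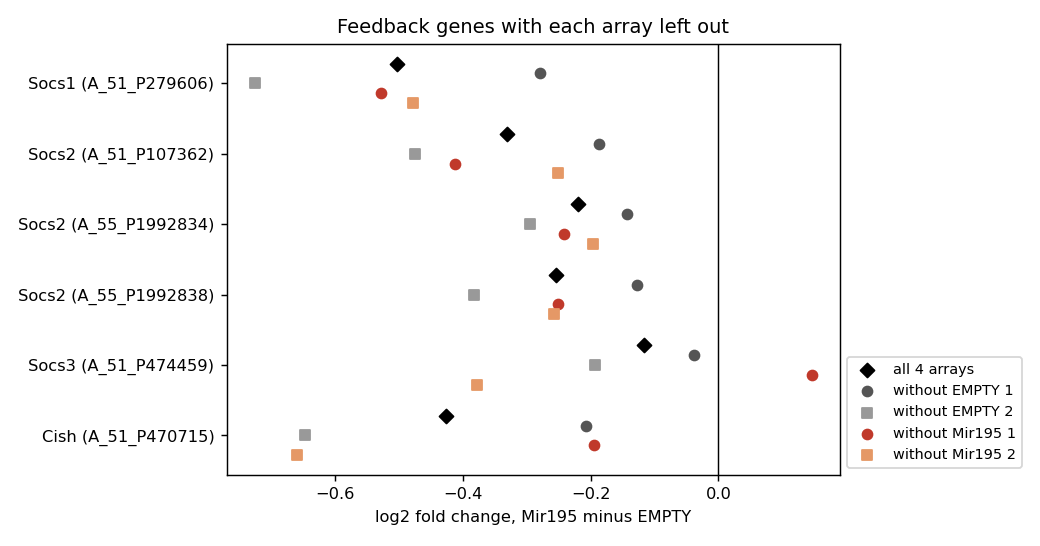
Log2 fold change, *Mir195* minus EMPTY, of the 6 feedback probes with all 4 arrays (black diamonds) and with each array left out. Without the first EMPTY array every value lies nearer 0 than with all arrays, and *Socs3* lies above 0 without the first *Mir195* array.

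The first EMPTY array was the highest of the 4 for 8 of the 15 probes, namely those of *Jak1*, *Jak2*, *Stat3* (A_51_P201480), *Socs1*, *Socs2* and *Cish*. Over all tested probes it was the highest for 17.7%. Among the feedback probes it was the highest for 5 of 6, *Socs3* being the exception. Markers of natural killer and T cells, which also use these receptors, were measured beside them. The natural killer markers *Ncr1* and *Klrb1c* were highest on that array as well: *Ncr1* read -1.75 and -3.04 with EMPTY and -2.95 and -2.38 with *Mir195*, and *Klrb1c* read 0.29 and -0.75 against -0.72 and -0.35. The third, *Nkg7*, was not: it read 3.31 and 3.33 against 3.07 and 3.19, and it makes up most of the list's sum. All 3 natural killer markers were well above background on all arrays, and the sum of their linear levels was 11.4 and 10.8 with EMPTY and 9.16 and 10.1 with *Mir195*. The 4 T lineage markers summed to 2.77 and 2.46 against 2.28 and 2.15. Of these, *Cd3g* had the order of arrays of *Socs1* (-0.53 and -0.96 against -1.54 and -1.56) and *Cd4*, *Cd3e* and *Cd8a* did not. *Cd4* was highest on the first EMPTY array, and *Cd3e* and *Cd8a* on the second. The other *Cd4* probe was highest on the second *Mir195* array (-4.97 and -5.30 against -5.16 and -4.73). *Cd8a* still had both *Mir195* arrays below both EMPTY arrays (-3.42 and -3.39 against -4.35 and -4.28). Its other probe did too (-3.58 and -3.81 against -4.56 and -4.45), with the first EMPTY array highest. The part of such cells in the levels of the feedback genes was not tested.

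The second *Mir195* array carried more stromal signal. The 5 of 7 OP9 stroma markers that were tested (*Col1a1*, *Col1a2*, *Col3a1*, *Cxcl12* and *Pdgfrb*) summed to 4.05 and 4.44 on the EMPTY arrays and to 3.87 and 6.63 on the *Mir195* arrays, and each of the 5 was highest on the second *Mir195* array. That array was the lowest for 34% of all tested probes and for 6 of the 15 member probes. Those 6 were the probes of *Jak1*, *Jak2* and *Socs1*, *Stat3* A_51_P201480, and *Socs2* A_51_P107362 and A_55_P1992834. It was the highest for 34.3% of all tested probes and for 4 of the 15 member probes. These were the probes of *Socs3*, both probes of *Stat5b* and *Stat3* A_55_P1991219. *Fos*, a subunit of the AP-1 transcription factor, was highest there as well and read 2.64 and 2.93 against 2.16 and 3.71. So was *Osmr*, the oncostatin M receptor, which read -5.25 and -5.24 against -5.63 and -4.02. The part of stromal cells in these levels was not tested. Of the 5 early B lineage markers tested, *Blnk*, *Cd79b*, *Vpreb1* and *Pax5* were well above background on all 4 arrays and *Cd79a* on 2. *Cd79b*, a chain of the B cell receptor complex, read -1.18 and -0.96 with EMPTY and -0.26 and 0.49 with *Mir195*, both *Mir195* arrays above (log2 fold change 1.19 ± 0.28 SE, adjusted p = 0.530), and the part of B lineage cells in the members' levels was not tested. The progenitor markers *Kit*, *Flt3*, *Cd34* and *Ptprc* were well above background on all 4 arrays. All 4 had a higher mean with *Mir195* (median log2 fold change 0.21), as did 9944 of all 19042 genes tested. None passed the adjusted threshold. They summed to 77.6 and 84.9 with EMPTY and to 92.0 and 89.3 with *Mir195*. The part of progenitor cells in the members' levels was not tested. The *Ebf1* probe read 2.01 and 1.89 against 1.85 and 2.03; where it lies relative to the deleted part was not checked, so it does not test the genotype.

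The receptors of the added cytokines were measured on the same arrays. *Il7r*, the IL-7 receptor alpha chain, read 3.47 and 3.23 with EMPTY and 3.30 and 3.51 with *Mir195*, with overlapping groups (log2 fold change 0.05 ± 0.15 SE). *Il2rg*, the common gamma chain, read 2.89 and 2.61 against 2.52 and 2.59, with both *Mir195* arrays just below (-0.19 ± 0.15 SE, adjusted p = 0.836). *Kit*, the SCF receptor, read 1.492 and 1.496 against 1.66 and 1.87, both *Mir195* arrays above (0.27 ± 0.13 SE, adjusted p = 0.697). *Flt3*, the receptor of Flt3-ligand, also had both *Mir195* arrays above, by 0.16 ± 0.12 (SE). KIT and FLT3 are receptor kinases that do not need JAKs to be activated.

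Among the wider cytokine receptors that use JAKs, 26 of 28 could be tested, with *Il9r* and *Csf3r* left out. Of these, 12 were higher and 14 lower with *Mir195*, and none passed the adjusted threshold. Both *Mir195* arrays lay above for 2 and below for 6, where 4391 and 2799 of all 19042 genes tested did. The median log2 fold change of the receptors was -0.01, beside 0.01 over all genes tested. *Il2ra*, the IL-2 receptor alpha chain and itself induced by STAT5, had the lowest log2 fold change among those well above background on all arrays. It read 0.85 and 0.15 with EMPTY and -0.36 and 0.18 with *Mir195*, so its groups overlapped in the same order as those of *Cish* (-0.58 ± 0.31 SE, adjusted p = 0.739). *Osmr* had the highest, 0.42 ± 0.53 (SE), from its second *Mir195* array alone. *Epor*, the erythropoietin receptor, read -3.35 and -3.25 on the EMPTY arrays and -3.26 on the first *Mir195* array, and was not well above background on the second.

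Of the other genes that STAT5 is known to induce, 9 of 10 could be tested (*Osm* could not); 3 were higher and 6 lower, none past the threshold, with a median log2 fold change of -0.11. *Bcl2*, the survival factor, had the highest value. It read 2.62 and 2.69 against 2.79 and 2.81, both *Mir195* arrays above, with a log2 fold change of 0.14 ± 0.12 (SE; adjusted p = 0.850). The first EMPTY array was the highest for 3 of the 9, *Il2ra*, *Bcl2l1* and *Pim2*, and the other 6 had their highest level elsewhere. Of the 4 other STAT3-induced genes, 2 were higher and 2 lower, with a median of 0.03, from *Cebpd* at -0.18 ± 0.16 (SE) to *Fos* at 0.15 ± 0.52 (SE).

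The remaining components showed no common direction. Of the other JAK and STAT genes, 3 of 5 were higher and 2 lower (median log2 fold change 0.10), and the lowest value was that of *Stat6*, the IL-4 effector, at -0.06 ± 0.12 (SE). Of the other SOCS genes, 3 of 4 were higher and 1 lower, with a median of 0.17. *Socs4* read -0.58 and -0.44 against -0.29 and -0.28, both *Mir195* arrays above (0.23 ± 0.12 SE, adjusted p = 0.737), and *Socs7* had the lowest value, -0.03 ± 0.17 (SE). The other negative regulators (phosphatases, PIAS proteins and CBL ligases among them) counted 5 higher and 8 lower of 13, with a median of -0.04. They ran from the phosphatase *Ptpn1*, 1.80 and 1.59 against 1.52 and 1.45 (-0.21 ± 0.13 SE), to *Ptprc*, which encodes CD45, at 0.27 ± 0.37 (SE). None of these passed the adjusted threshold.

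Of the members, *Cish* varied most, with a range of 0.880 over the 4 arrays. The 5 named probes whose centred values were most like it, among 22576 probes measured above background throughout, were those of *Tgfb3*, *Lcp2*, *Klf8*, *Prelid2* and *Dnajb2*, at Euclidean distances of 0.0391 to 0.0764. *Tgfb3* read 1.06 and 0.62 with EMPTY and 0.17 and 0.68 with *Mir195*. With 4 arrays such likeness is a description of these arrays.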

How the data were processed

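Total RNA of 4 samples, 2 per virus, was labelled with Cy3 and measured on Agilent Whole Mouse Genome arrays. The authors deposited scanner files that give the intensity of each spot after subtraction of background by the Feature Extraction software (version 11.5.1.1 in the submitters' processing notes, 9.1.3.1 in the file headers). A second deposited file gives each probe as a log2 value that the authors scaled by percentile; its exact scale and centring are not stated, its column medians were -4.45 to -4.29, the lowest correlation of an array with the values used here was r = 0.998, and it served as an alternative. Of 44397 spots per array, 43020 were not controls.

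Spots of a probe were averaged on the log2 scale without outlier spots, and the 75th percentile of each array was subtracted. A probe was tested if the scanner software marked it well above background on each array of the EMPTY or of the *Mir195* virus and no array lacked a value, which left 23732 probes. They were compared with limma 3.58.1 in R 4.3.3 (lmFit and eBayes, two-sided, Benjamini-Hochberg over all tested probes); version 1.17.8 of data.table read the files. The procedure was tested on simulated data. Values stand without a count-based depth, so the number of arrays limits the precision. Confidence intervals are at 95%. Gene symbols came from accessions in the RefSeq annotation GRCm38.p6 for 26055 probes and otherwise from the array; a gene in a list is given by its probe with the highest mean.

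The members and gene lists were chosen with earlier results of these data known. Named were all member probes, the receptors of the added cytokines, *Ebf1*, the genes with the highest and lowest log2 fold change in each pathway list among those well above background on all arrays, and the 5 probes most like the most variable member. Marker genes, *Epor*, *Bcl2l1* and *Pim2* were named beyond this rule, *Epor*, *Bcl2l1* and *Pim2* after their values were seen. Some items that the rule names are not reported here. Alternatives were normexp background correction (offset 50), quantile and median scaling, another percentile base, the authors' table, other filters, a trended and robust fit, a replicate block, each array left out, and the methods' t-test.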

Additional observations from a re-analysis of the deposited data

How the results depend on the processing

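No member probe passed the adjusted threshold under any of the 15 alternatives per probe, the lowest adjusted p being 0.275 for *Socs1* (range 0.275 to 1). Of 225 alternative values of the 15 member probes, 217 kept their direction. The 8 that turned were as follows. Under median scaling *Jak3* A_51_P355360 was -0.042, *Jak3* A_55_P2010912 -0.052 and *Stat5a* -0.072. *Stat5b* A_55_P2031043 was then -0.048 and *Stat5b* A_55_P2031045 -0.026. Without the first *Mir195* array *Stat5a* was -0.00082 (-0.00082 to 0.053 with each array left out). *Socs3* was 0.15 without that array (-0.38 to 0.15), against -0.12 with all arrays. *Stat5b* A_55_P2031043 was -0.025 without the second *Mir195* array (-0.025 to 0.12). Median scaling moved the median of all tested probes from 0.013 to -0.084. The probes above and below both EMPTY arrays were then 14% and 25.6% of all tested, and 39.5% and 10.4% with normexp, against 23.4% and 14.4%. All 6 feedback probes stayed lower under every alternative except without the first *Mir195* array (5 of 6).

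Over all tested probes, 0 passed the adjusted threshold (1980 at an unadjusted p under 0.05), 3 did with median scaling, 5 with the replicate block, and 0 to 904 with an array left out (904 without the first *Mir195* array). At an unadjusted p under 0.05, 3754 passed with normexp, 1134 with the methods' t-test (0 after Benjamini-Hochberg adjustment) and 888 to 4176 with an array left out. Of the member probes, 2 passed there with normexp and with the trended robust fit, 0 with quantile scaling, with the other percentile base, without the filter on dim probes and with the methods' t-test, and 0 to 1 with an array left out. Member probes above numbered 0 with median scaling and in the authors' table, where 14% and 21.5% of all tested probes lay above, and 3 to 5 with an array left out, where 34.2% to 40.1% did.

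The median of the other JAK and STAT genes was 0.042 with normexp, 0.0064 with median scaling and 0.027 in the authors' table. Under median scaling, the negative regulators were at -0.14, the receptors at -0.11 and the STAT5-induced genes at -0.20. With an array left out, the list medians ran from -0.081 to 0.11 (other JAK and STAT genes), 0.048 to 0.28 (other SOCS genes), -0.14 to 0.020 (STAT5-induced genes) and -0.30 to 0.32 (STAT3-induced genes). The cause was not tested for any of these.

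Same-numbered arrays did not deviate together (r = -0.101 over tested probes). Whether the samples were paired stays unknown, because the labels do not say and other differences between arrays could hide a shared one. The replicate block above moved no member call. A crossed pairing, chosen after seeing the data, called 0 probes at the adjusted threshold and 2203 at an unadjusted p under 0.05.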
